A study of Mus musculus with 7 samples.

Results

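The TSC22 domain family was followed by its 4 mouse genes, Tsc22d1, Tsc22d2, Tsc22d3 and Tsc22d4, which are 4 of the 35976 genes in the count table. The genes were matched by symbol as the paralogs of 1 family. The family was chosen by measured values of these same libraries, the counts of Tsc22d1 and its paralogs in sgEgfr against sgRosa, and Tsc22d1 had the 7th smallest p of the 14936 genes tested. The levels and ratios of the 4 genes and their differences between the guides are therefore given as descriptions, with no p of their own. Their number of calls in the fit over all genes is given for completeness. Of 26 relations examined, exact p-values are given for Tsc22d3 with astrocyte and oligodendrocyte markers and for Tsc22d4 with oligodendrocyte markers.

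Proteins of this family share a conserved TSC box followed by a leucine zipper, through which they form homodimers and heterodimers. Long and short forms of these proteins differ in the part before the TSC box. The long ones bind the pseudokinase NRBP1 and the WNK kinases, which act through the kinases SPAK and OSR1 on the chloride cotransporters that set cell volume. Tsc22d3 encodes GILZ, the glucocorticoid-induced leucine zipper, which is switched on by the glucocorticoid receptor and by FOXO factors and restrains inflammatory transcription. Tsc22d1, first described as TGF-beta-stimulated clone 22, is also known as a regulator of transcription.

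The libraries came from amygdala cells of male C57BL/6J mice, from which cells bearing ACSA-2, a surface antigen of astrocytes, were taken with magnetic beads. An adeno-associated virus carried Cas9 under the GfaABC1D promoter, which is active in astrocytes, with a guide against Egfr, the epidermal growth factor receptor gene (sgEgfr, 3 libraries), or against the Rosa locus (sgRosa, labelled sgRosa26, 4 libraries). All mice, sgRosa controls included, had the virus and Cas9, then spent 7 days under tube restraint, were fear-conditioned on 1 day and had extinction on 3 more, so the series held no unstressed group. Age and the number of mice behind a library were not stated, and p-values therefore measured the spread between these libraries, which may be technical.

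Library totals ran from 14983594 to 22579222 counts in sgEgfr and from 5852870 to 18345655 counts in sgRosa. The libraries sgRosa 3 and sgRosa 4 were nearly identical, with a chi-square of 1.04 per degree of freedom against 14.8 to 158 for the 20 other library pairs. They were added together as 1 sample, sgRosa 3+4, so that each guide had 3 samples. Egfr itself averaged 8.15 ± 2.51 CPM in sgEgfr and 8.92 ± 5.40 CPM in sgRosa (SD, n = 3 each), where CPM is the TMM-scaled count as a standard share of its library. Its log2 fold change was -0.13 (SE 0.54), and its lowest sample was a control, sgRosa 2 at 2.87 CPM. These counts therefore showed no clear loss of Egfr RNA in sgEgfr. The cells were labelled astrocytes, yet 20 markers of astrocytes took 0.920% to 1.30% of counts in sgEgfr and 0.572% to 1.47% in sgRosa. The 20 markers of myelinating oligodendrocytes took 9.76% to 16.5% in sgEgfr and 9.0% to 13.7% in sgRosa, and no marker of either list was at 0.

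The 4 genes lie on different chromosomes, here in GRCm38 positions of GENCODE M21. Tsc22d1 occupies chromosome 14 from 76414961 to 76507765 on the plus strand, with 16 annotated transcripts. Tsc22d2 occupies chromosome 3 from 58414715 to 58466783 on the plus strand, with 4 transcripts. Tsc22d3 occupies chromosome X from 140539528 to 140600659 on the minus strand, with 6 transcripts. Tsc22d4 occupies chromosome 5 from 137745730 to 137768450 on the plus strand, with 9 transcripts.

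The deposited counts are 1 number per gene, so they do not separate long forms from short ones. Annotated coding regions, incomplete models included, ran from 82 to 1077 codons in Tsc22d1, 745 to 769 in Tsc22d2, 113 to 201 in Tsc22d3 and 96 to 509 in Tsc22d4. No other GENCODE or RefSeq gene overlapped any of the 4. Of all 50-base words in their transcripts, 0% of Tsc22d1 and 0% of Tsc22d2 words recurred in a transcript of another gene, 0.456% of Tsc22d3 words recurred in Gm8812, and 0.133% of Tsc22d4 words recurred elsewhere. None was shared between family members.

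RefSeq promoter windows (GRCm38.p6, 250 bases before to 50 after a start) were at hand for Tsc22d1, with 5 starts, and Tsc22d3, with 3. The 2 windows below are shown because they are the ones of these 8 that hold the receptor hexamer, the letters AGAACA or their reverse complement TGTTCT that a subunit of the glucocorticoid receptor prefers, set in capitals. Both are printed 5′ to 3′ along the gene, the first from chr14:76503976-76504275 on the plus strand and the second from chrX:140600473-140600772 on the minus strand.
Tsc22d1: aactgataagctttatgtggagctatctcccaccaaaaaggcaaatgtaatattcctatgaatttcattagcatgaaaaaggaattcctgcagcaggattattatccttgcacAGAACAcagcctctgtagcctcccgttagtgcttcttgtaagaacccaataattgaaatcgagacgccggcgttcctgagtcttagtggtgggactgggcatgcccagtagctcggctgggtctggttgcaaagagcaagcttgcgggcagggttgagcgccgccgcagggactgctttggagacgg
Tsc22d3: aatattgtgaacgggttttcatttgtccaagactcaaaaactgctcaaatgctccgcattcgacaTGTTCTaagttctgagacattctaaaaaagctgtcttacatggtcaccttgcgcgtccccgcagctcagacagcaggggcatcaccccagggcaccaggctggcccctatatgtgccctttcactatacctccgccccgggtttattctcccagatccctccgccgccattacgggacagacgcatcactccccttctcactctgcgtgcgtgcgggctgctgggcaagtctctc

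In GENCODE M21, 1 transcript began within 50 bases of the RefSeq start inside this Tsc22d1 window. Within 50 bases of the RefSeq start inside this Tsc22d3 window, 0 began. The hexamer began 137 bases before the start in the Tsc22d1 window and 185 bases before it in the Tsc22d3 window. It was present on either strand in 2 of the 8 windows of these genes and in 19% of the 32851 promoter windows of the whole table. The full glucocorticoid response element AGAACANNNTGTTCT, which contains the hexamer on both strands, was in 0 of the 8 windows and in 0.00913% of all windows. The short cAMP response element TGACG, which lies within the full one, was in 2 of the 8 windows and in 20.8% of all windows, and the TATA box TATAAA was in 1 of the 8 and in 13.6%. The FOXO site GTAAACA (3.65% of all windows, reverse complement TGTTTAC), the SMAD-binding element GTCTAGAC (0.213%) and the cAMP response element TGACGTCA (1.79%) were in 0 of the 8. The letters describe these windows alone and say nothing of binding in these cells.

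Tsc22d1 was the member with the largest difference between the guides, at higher values in sgEgfr. It had 4873, 3484 and 6141 counts in sgEgfr 1 to 3, against 2358, 3149, 1512 and 948 counts in sgRosa 1 to 4. After scaling these were 309, 228 and 268 CPM in sgEgfr 1 to 3, against 166, 165 and 156 CPM in sgRosa 1, 2 and 3+4. All sgEgfr samples lay above all sgRosa samples, and the lowest sgEgfr sample was 1.37 times the highest sgRosa sample. The sgRosa samples lay close together, with a coefficient of variation of 3.27%, while the sgEgfr samples had 15.1%, with sgEgfr 1 highest and sgEgfr 2 lowest. The means were 269 ± 40.5 CPM in sgEgfr and 162 ± 5.31 CPM in sgRosa (SD, n = 3 each), a log2 fold change of 0.72 (SE 0.17).

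Neuron markers were offset between the guides in the same direction as Tsc22d1. They took 0.0692% to 0.0716% of counts in sgEgfr and 0.0488% to 0.0645% in sgRosa, with 17 of 19 tested markers at a positive log2 fold change and none at 0. Their part in the Tsc22d1 value was not tested. The summed share of the glucocorticoid genes, described below, was also apart between the guides. It was 0.431% to 0.448% in sgEgfr and 0.216% to 0.391% in sgRosa, and its part was not tested either. Positive log2 fold changes were also held by 13 of 15 markers of oligodendrocyte precursors, 17 of 20 of microglia, 16 of 19 of endothelium and 14 of 14 of ependyma, but the summed shares of these lists overlapped between the guides. Ependymal markers took 0.157% in sgEgfr 3, at most 0.0136% in the other sgEgfr samples and 0.00775% to 0.0567% in sgRosa. Of the remaining cell type and stress lists, 13 of 20 astrocyte, 7 of 20 oligodendrocyte, 15 of 20 immediate early and 12 of 15 heat shock genes had positive values. In bulk samples such as these, more cells of a type and more RNA per cell cannot be told apart.

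Tsc22d2 was the least abundant member and the one with lower values in sgEgfr. It had 245, 180 and 423 counts in sgEgfr 1 to 3, against 276, 552, 214 and 111 counts in sgRosa 1 to 4. This was 15.5, 11.8 and 18.5 CPM in sgEgfr 1 to 3, against 19.5, 28.8 and 20.7 CPM in sgRosa 1, 2 and 3+4. The ranges did not overlap, but sgEgfr 3 and sgRosa 1 were close, and sgRosa 2 stood well above the other samples. The means were 15.3 ± 3.36 CPM in sgEgfr and 23.0 ± 5.10 CPM in sgRosa (SD, n = 3 each), a log2 fold change of -0.59 (SE 0.25). Counting error reached 7.45% of the value in its lowest sample, against at most 2.06% for each of the other 3 genes. Without sgRosa 2 the log2 fold change was -0.40, and with the endothelial marker score as a covariate it was -0.32.

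Tsc22d3, which encodes GILZ, had ranges that overlapped. Its counts were 5027, 3791 and 7709 in sgEgfr 1 to 3, against 4247, 4120, 3085 and 1818 in sgRosa 1 to 4. Its level was 319, 248 and 337 CPM in sgEgfr 1 to 3, against 299.7, 215 and 312 CPM in sgRosa 1, 2 and 3+4. Low values came from sgEgfr 2 and sgRosa 2, and the other 4 samples lay near each other. The means were 301 ± 47.0 CPM in sgEgfr and 276 ± 52.6 CPM in sgRosa (SD, n = 3 each), with a log2 fold change of 0.13 (SE 0.21). Without sgRosa 2 it was -0.02, so the sign depended on that sample. Over the 20 alternatives it ran from -0.09, adjusted for the endothelial score, to 0.25, adjusted for the heat shock score.

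Tsc22d4, whose protein has been found with AKT1 and with NRBP1, overlapped as well and was the member with most counts. It had 6421, 7048 and 8501 counts in sgEgfr 1 to 3, against 4659, 7637, 4103 and 2455 counts in sgRosa 1 to 4. Its level was 407, 461 and 372 CPM in sgEgfr 1 to 3, against 329, 399 and 417 CPM in sgRosa 1, 2 and 3+4. The highest value was in sgEgfr 2 and the lowest in sgRosa 1. The means were 413 ± 45.1 CPM in sgEgfr and 382 ± 46.6 CPM in sgRosa (SD, n = 3 each), with a log2 fold change of 0.12 (SE 0.18). Over the 20 alternatives it ran from -0.03, adjusted for the heat shock score, to 0.35, adjusted for the endothelial score. Among left-out samples it ran from 0.01 without sgEgfr 2 and 0.02 without sgRosa 1 to 0.19 without sgEgfr 3 and 0.19 without sgRosa 3 and 4.

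**Figure D1:**
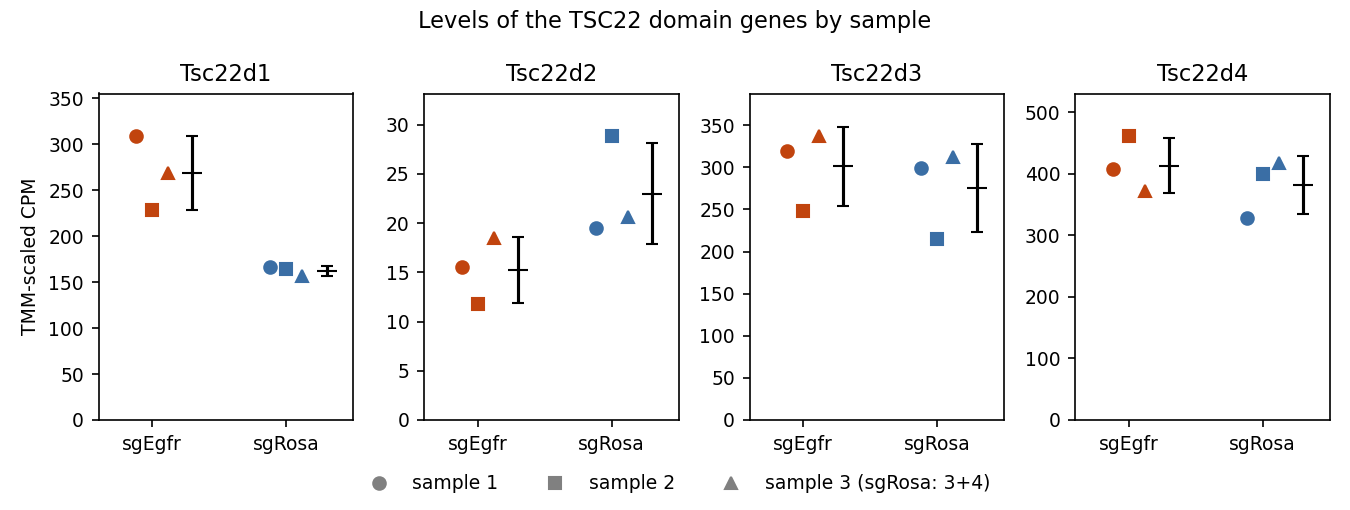
Levels of the 4 genes in TMM-scaled CPM on linear axes from 0, with 1 point per sample and, in black, the mean and SD of each guide (n = 3 each). Tsc22d1 in sgEgfr lay at 228 to 309 CPM, above 156 to 166 CPM in sgRosa, Tsc22d2 was lower in sgEgfr, and Tsc22d3 and Tsc22d4 overlapped.

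With edgeR's quasi-likelihood test and Benjamini-Hochberg adjustment over all genes, 0 of the 4 members were called at an adjusted p under 0.05, and 0% of the 14936 genes were called. An unadjusted p under 0.05 was reached by 401 of 14936 genes in edgeR, 565 of 24574 in DESeq2 and 418 of 14936 in limma-voom, and each tool called 0. These shares were below the 0.05 that evenly spread p-values would give. Sample ranges did not overlap for 2 of the 4 members, Tsc22d1 and Tsc22d2, and for 7.61% of all genes tested. Of all genes, 3.76% had non-overlapping ranges with sgEgfr higher and 3.85% with sgEgfr lower. Since this contrast brought the family up, nothing is read from the count of members.

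**Figure D2:**
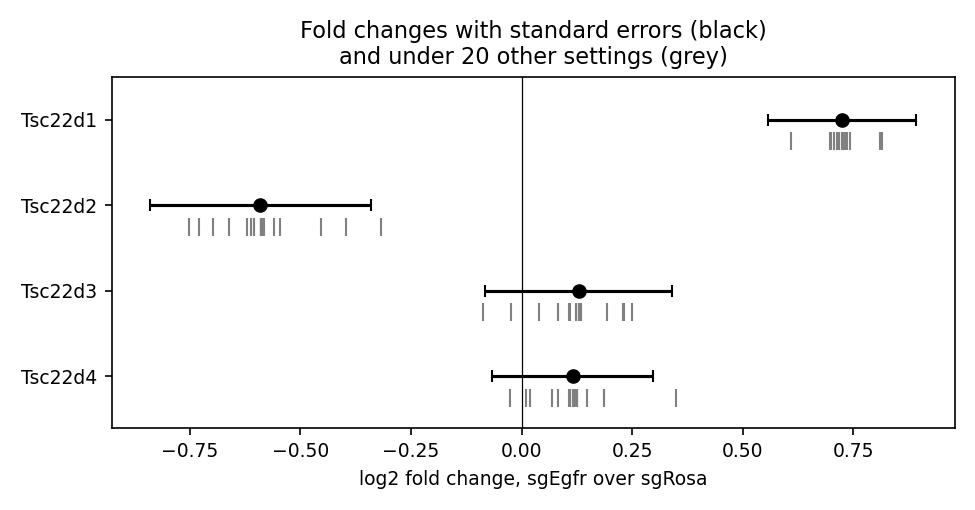
Log2 fold change, sgEgfr over sgRosa, of the 4 genes (black points, bars of 1 SE) and the same value under 20 other settings (grey ticks). Tsc22d1 stayed between 0.61 and 0.81 and Tsc22d2 between -0.75 and -0.32, while the ticks of Tsc22d3 and Tsc22d4 spread to both sides of 0.

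Ratios between paralogs were formed within each sample, so they do not depend on the scaling of libraries. Tsc22d1 and Tsc22d2 parted most. Tsc22d1 had 19.9, 19.3 and 14.5 times the counts of Tsc22d2 in sgEgfr 1 to 3, against 8.53, 5.70 and 7.56 times in sgRosa 1, 2 and 3+4. Every sgEgfr ratio was above every sgRosa ratio. On the log2 scale the ratio was 4.15 ± 0.25 in sgEgfr and 2.84 ± 0.30 in sgRosa (SD, n = 3 each), a difference of 1.31, where counting error was at most 0.11 in a sample. Leaving out single libraries, or sgRosa 3 and 4 together, gave differences of 1.14 to 1.45.

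Relative to GILZ, Tsc22d1 also had higher ratios in sgEgfr. The count ratio of Tsc22d1 to Tsc22d3 was 0.969, 0.919 and 0.797 in sgEgfr 1 to 3, against 0.555, 0.764 and 0.502 in sgRosa 1, 2 and 3+4. The ranges did not overlap, but sgEgfr 3 and sgRosa 2 nearly met. The log2 ratio was -0.16 ± 0.15 in sgEgfr and -0.74 ± 0.32 in sgRosa (SD, n = 3 each), a difference of 0.58.

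Against Tsc22d4 the groups overlapped. The count ratio of Tsc22d1 to Tsc22d4 was 0.759, 0.494 and 0.722 in sgEgfr 1 to 3, against 0.506, 0.412 and 0.375 in sgRosa 1, 2 and 3+4. sgEgfr 2 lay just below sgRosa 1. The log2 difference was 0.60.

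The ratios of Tsc22d2 to its paralogs were lower in sgEgfr. For Tsc22d2 to Tsc22d3 the log2 ratio was -4.31 ± 0.11 in sgEgfr and -3.58 ± 0.59 in sgRosa (SD, n = 3 each), with ranges that did not overlap and a difference of -0.73. The wide sgRosa spread came from sgRosa 2 at -2.90, and without it the difference was -0.38. For Tsc22d2 to Tsc22d4 the log2 ratio was -4.77 ± 0.48 in sgEgfr and -4.07 ± 0.27 in sgRosa, with overlap and a difference of -0.71, which was -0.45 without sgEgfr 2.

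Tsc22d3 to Tsc22d4 showed no such offset. The log2 ratio was -0.46 ± 0.39 in sgEgfr and -0.48 ± 0.38 in sgRosa (SD, n = 3 each), a difference of 0.02. It was lowest in sgEgfr 2 (-0.89) and sgRosa 2 (-0.89), and it was -0.35 and -0.14 in sgEgfr 1 and 3, against -0.13 and -0.42 in sgRosa 1 and 3+4. The difference was -0.19 without sgRosa 2 and 0.23 without sgEgfr 2.

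**Figure D3:**
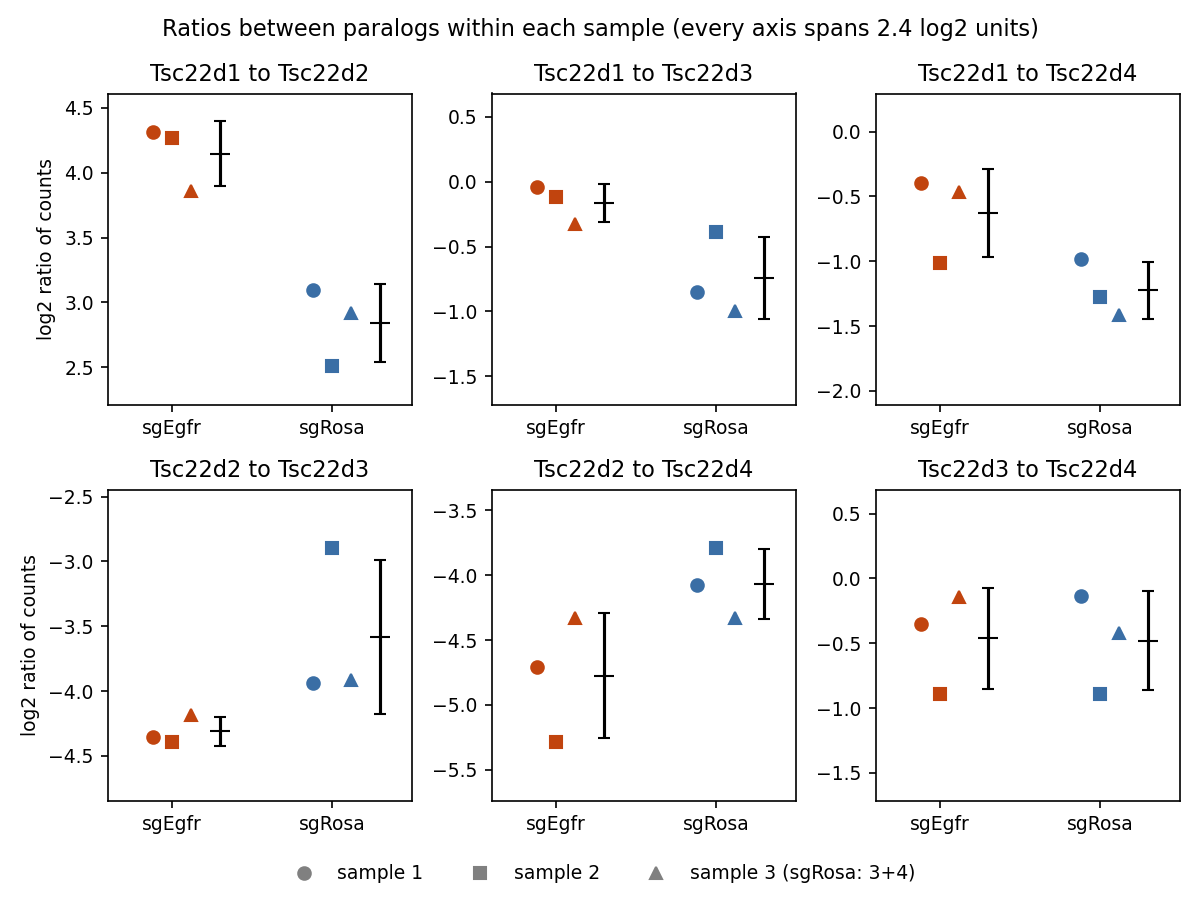
Log2 ratio of the counts of each pair of paralogs within each sample, with the mean and SD of each guide in black (n = 3 each) and every vertical axis spanning the same range. The ratio of Tsc22d1 to Tsc22d2 averaged 4.15 in sgEgfr and 2.84 in sgRosa, and the ratio of Tsc22d3 to Tsc22d4 averaged -0.46 and -0.48.

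As a share of the counts of the family, Tsc22d1 took 29.4%, 24.0% and 27.0% in sgEgfr 1 to 3, against 20.4%, 20.4% and 17.3% in sgRosa 1, 2 and 3+4. Tsc22d2 took 1.24% to 1.86% in sgEgfr and 2.28% to 3.57% in sgRosa. The family together had 1050.5, 949 and 996 CPM in sgEgfr 1 to 3, against 814, 808 and 906 CPM in sgRosa 1, 2 and 3+4. These sums did not overlap, and they contain the Tsc22d1 difference that drew attention to the family.

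Per kilobase of merged exons, Tsc22d3 stood at 49.6 to 77.6 CPM over the 6 samples, Tsc22d4 at 43.8 to 61.4, Tsc22d1 at 17.4 to 34.4 and Tsc22d2 at 1.05 to 2.57. Tsc22d3 and Tsc22d4 overlapped in level, and each of the lower steps was larger than the spread over samples. The order of the upper 3 changed with the length used as divisor. The median length of annotated coding transcripts, incomplete models included, was chosen as the other divisor after the data were seen. With it, the means over the 6 samples were 381 CPM per kilobase for Tsc22d4, 234 for Tsc22d1, 186 for Tsc22d3 and 2.65 for Tsc22d2. Tsc22d3 was nonetheless above Tsc22d1 in sgRosa 1 and sgRosa 3+4, and below it in the other samples. Tsc22d2 was lowest with both lengths.

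Across the 6 samples, Tsc22d3 had the highest absolute r of the 4 members with the astrocyte score and with the oligodendrocyte score. Its low samples, sgEgfr 2 and sgRosa 2, had the lowest shares of astrocyte markers, 0.920% and 0.572%, and the highest shares of oligodendrocyte markers, 16.5% and 13.7%. Pearson's r of log2 CPM was 0.87 with the mean log2 CPM of the astrocyte markers (exact permutation p = 0.0194, n = 6, adjusted p = 0.253 over 26 relations). Spearman's rho was 0.77 (exact permutation p = 0.103, adjusted p = 0.590). With sgRosa 2 and sgRosa 3+4 left out, r was 0.76, but this kept sgEgfr 2, a low sample. No r was computed without both low samples. In sgEgfr 1, sgEgfr 3, sgRosa 1 and sgRosa 3+4, astrocyte shares were 1.30%, 1.22%, 1.29% and 1.47%. Tsc22d3 there was at 319, 337, 299.7 and 312 CPM, with no steady rise along these shares.

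With oligodendrocyte markers, r of Tsc22d3 was -0.92 (exact permutation p = 0.0167, n = 6, adjusted p = 0.253) and rho was -0.77 (exact permutation p = 0.103, adjusted p = 0.590). With sgEgfr 2 and sgRosa 2 left out r was -0.34, so this relation rested on those samples. Tsc22d4 had r of 0.67 with the oligodendrocyte markers (rho 0.54, exact permutation p = 0.140 for r and 0.297 for rho, adjusted p = 0.521 and 0.770), and r of 0.68 without the same samples. With the heat shock score Tsc22d4 had a higher r, 0.75, which was -0.92 without sgEgfr 2 and sgRosa 1. Of the 26 relations, the 2 of Tsc22d3 had an unadjusted p under 0.05 for r, and 0 passed the adjustment. All points share their library and its scaling.

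**Figure D4:**
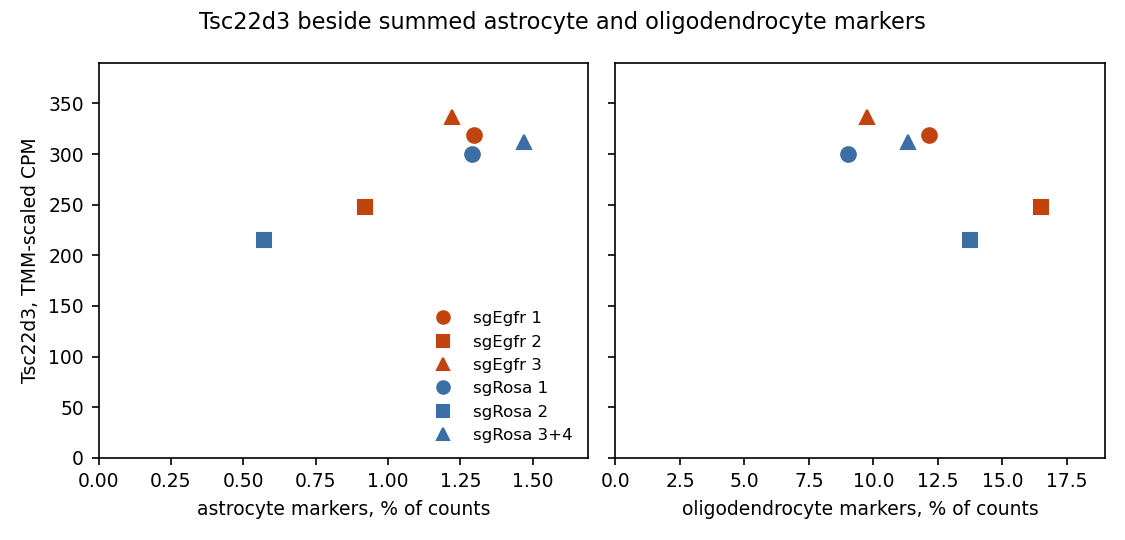
Tsc22d3 in TMM-scaled CPM against the percent of all counts taken by 20 astrocyte markers (left) and 20 oligodendrocyte markers (right), 1 point per sample. The low samples, sgEgfr 2 at 248 CPM and sgRosa 2 at 215 CPM, had the fewest astrocyte and the most oligodendrocyte counts.

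The paralogs did not move as one across samples. Among the 6 pairs, Pearson's r ran from -0.60 for Tsc22d1 with Tsc22d2 to 0.41 for Tsc22d1 with Tsc22d3. For Tsc22d1 with Tsc22d2, rho was -0.77, and r was -0.86 without sgEgfr 1 and sgEgfr 3. These genes had opposite offsets between the guides, which enter the values, so they are descriptions of the 6 samples. The endothelial score had r of -0.75 with Tsc22d2, 0.70 with Tsc22d1, 0.54 with Tsc22d3 and -0.19 with Tsc22d4. Without sgRosa 2 and sgRosa 3+4 these were 0.14 for Tsc22d2, 0.22 for Tsc22d1, 0.27 for Tsc22d3 and 0.02 for Tsc22d4, so the relations rested on those samples.

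The genes whose log2 CPM followed each member most closely over the 6 samples were taken by Pearson's r among 9039 other genes of at least 10 CPM. For Tsc22d1 they were Rlbp1, a retinaldehyde-binding protein (r = 0.98), the ETS transcription factor Etv4 (0.97) and Map7d2, a microtubule-associated protein (0.97), and 9 genes had r over 0.9. For Tsc22d2 they were Gcn1l1, an activator of the kinase GCN2 (0.99), Ubald1 (0.99) and Coq10a, a coenzyme Q-binding protein (0.98), with 99 genes over 0.9. For Tsc22d3 they were the adhesion protein Nectin3 (0.99), the tetraspanin Tspan12 (0.99) and Cmpk2, a mitochondrial nucleotide kinase (0.98), with 225 genes over 0.9. For Tsc22d4 they were Snrpa, a protein of the U1 snRNP, Ppme1, the methylesterase of protein phosphatase 2A, and the ubiquitin ligase Fbxo32 (1.00 each after rounding), with 277 genes over 0.9. With 6 samples and so many genes, high values of r arise readily, and they are given as descriptions. The offsets of Tsc22d1 and Tsc22d2 between the guides also enter their values.

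Glucocorticoid-responsive genes, the setting in which Tsc22d3 is best known, had mostly positive log2 fold changes, while Tsc22d3 itself had 0.13. Of 27 tested genes of this list, family members left out, 24 had positive and 3 negative log2 fold changes, 0 were called, and the median was 0.42. Over all genes 52.9% had positive values and the median was 0.02. Other lists had medians as high or near it, 1.40 for ependymal, 0.66 for oligodendrocyte precursor, 0.58 for endothelial, 0.54 for immediate early, 0.48 for neuron and 0.41 for microglia genes. Ranges did not overlap for 4 glucocorticoid genes with sgEgfr higher, against 3.76% of all genes, and for 1 with sgEgfr lower, against 3.85%. The neuron and the endothelial list had 4 of 19 genes each with sgEgfr higher. Cdkn1a, a cell cycle inhibitor, was at 53.9 ± 20.8 CPM in sgEgfr and 21.0 ± 6.73 CPM in sgRosa, a log2 fold change of 1.36 (SE 0.35). The other genes with the smallest p were the phosphatase gene Dusp1 (1.16), Arrdc2 (0.90) and the lipid droplet gene Plin4 (1.09). The classical targets Fkbp5, a co-chaperone of the receptor, and Sgk1, a kinase, had 0.69 (SE 0.39) and 0.79 (SE 0.61). The receptor genes had negative values, -0.37 (SE 0.16) for Nr3c1 and -0.02 (SE 0.26) for Nr3c2.

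sgRosa 1 held the lowest share of both the glucocorticoid and the heat shock lists. Glucocorticoid genes took 0.436%, 0.431% and 0.448% of counts in sgEgfr 1 to 3, against 0.216%, 0.391% and 0.353% in sgRosa 1, 2 and 3+4. These shares did not overlap between the guides. Heat shock genes took 0.524%, 0.581% and 0.559% in sgEgfr 1 to 3, against 0.374%, 0.595% and 0.544% in sgRosa 1, 2 and 3+4. What set these shares was not tested. Over the 6 samples, r with the mean log2 CPM of the glucocorticoid list was 0.74 for Tsc22d1, into which its offset between the guides enters, and 0.24 for Tsc22d3, with rho of 0.71 for both. Without sgEgfr 3 and sgRosa 1, r was 0.96 for Tsc22d1 and 0.51 for Tsc22d3. This left only sgEgfr 1, sgEgfr 2, sgRosa 2 and sgRosa 3+4. The offsets of Tsc22d1 and of the list between the guides enter the 0.96 as well, so it is a description.

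The WNK and NRBP module, to which long family proteins bind, was spread around 0. Of 15 tested genes, 8 had positive and 7 negative log2 fold changes, 0 were called, and the median was 0.02. Stk39, which encodes SPAK, was at 52.3 ± 7.40 CPM in sgEgfr and 77.3 ± 16.05 CPM in sgRosa (SD, n = 3 each), a log2 fold change of -0.56 (SE 0.20), and its ranges did not overlap. This was 1 of the 15 genes, near the 7.61% of all genes tested with such ranges. Slc12a2, which encodes the chloride importer NKCC1 downstream of SPAK, had -0.42 (SE 0.22), and the SPAK scaffold Cab39 had -0.32 (SE 0.20). The partners NRBP1 and NRBP2 had opposite signs, 0.29 (SE 0.20) for Nrbp1 and -0.37 (SE 0.22) for Nrbp2. Wnk1, at 428 ± 59.7 CPM in sgEgfr and 491 ± 76.8 CPM in sgRosa, had -0.20 (SE 0.20), and Oxsr1, which encodes OSR1, had -0.04 (SE 0.22).

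TGF-beta genes, after which Tsc22d1 was first named, had 11 positive and 8 negative values among 19 tested, 0 called, and a median of 0.04. Id1, a target of BMP and TGF-beta signals, was at 23.1 ± 11.1 CPM in sgEgfr and 8.98 ± 0.369 CPM in sgRosa, a log2 fold change of 1.37 (SE 0.37). The receptor gene Tgfbr2 had 1.52 (SE 0.83), and among the ligands Tgfb3 had 0.37 (SE 0.21) and Tgfb1 had -1.69 (SE 0.74) at 0.342 CPM in sgEgfr and 1.12 CPM in sgRosa.

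FOXO and AKT genes, which bear on Tsc22d3 and Tsc22d4, had 7 positive and 9 negative values among 16 tested, 0 called, and a median of -0.12. Trib1, a pseudokinase, had 1.08 (SE 0.28), Txnip, a thioredoxin inhibitor, 1.52 (SE 0.70), the cell death gene Bcl2l11 -0.91 (SE 0.37) and Foxo6 -1.12 (SE 0.66) at under 1 CPM in both groups.

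**Figure D5:**
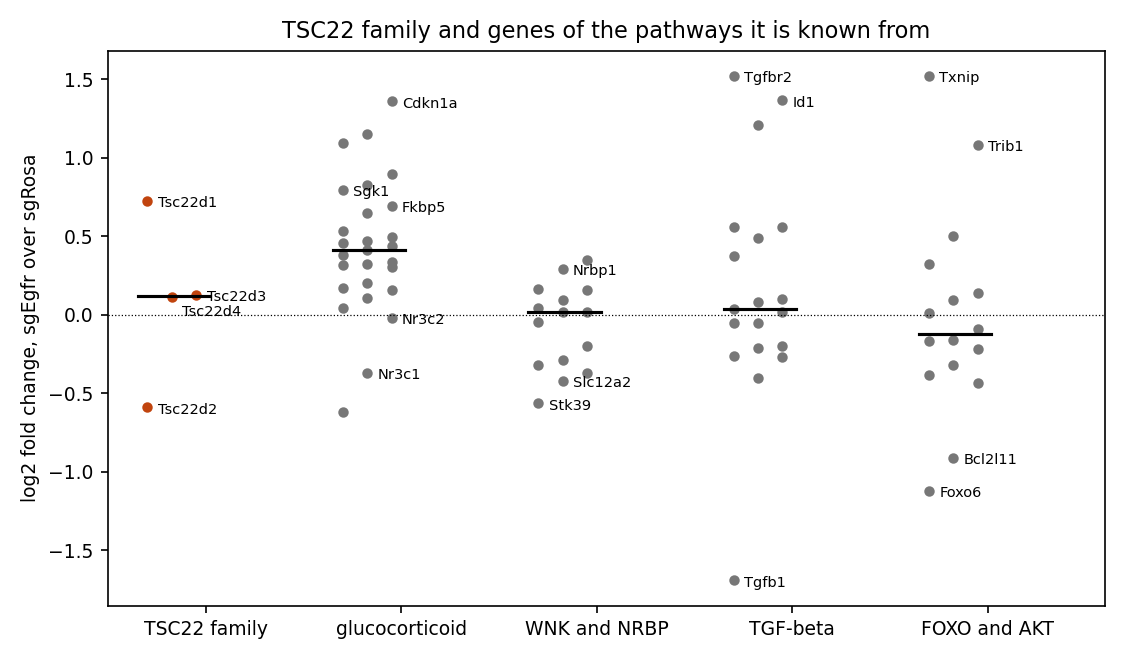
Log2 fold change, sgEgfr over sgRosa, of the 4 TSC22 genes (orange) and of the tested genes of 4 lists (grey), 1 point per gene, with a black line at the median of each set. The glucocorticoid list has its median at 0.42, while Tsc22d3 has 0.13 and the WNK and NRBP list has its median at 0.02.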

How the data were processed

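RNA-seq read counts of 4 sgRosa and 3 sgEgfr libraries were analysed. The authors deposited raw whole-number counts per gene, as 1 table and as 1 file per library, and all 7 files matched the table exactly. The build was mm10 and the tools, per the submitters' processing notes, were fastp 0.23.2, FastQC 0.11.9, MultiQC 1.11, STAR 2.7.5c, featureCounts 2.0.1 and edgeR 3.42.4. Not given in the sources used here are the annotation, the strand setting and the handling of reads with several matches.

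Library pairs were compared by chi-square over genes with at least 20 counts. Genes were kept with filterByExpr (minimum count 10, minimum total 15), scaled with TMM and tested with glmQLFTest in edgeR 4.0.16 under R 4.3.3, guide as the only term, and called at an adjusted p under 0.05. The script was tested on simulated data. Log2 CPM used a prior count of 2, ratios a pseudocount of 0.5. In sgRosa 4, the shallowest library, 3 counts stood for 0.513 CPM. Alternatives used DESeq2 1.42.0 and limma 3.58.1. Figures used matplotlib 3.10.9.

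Members and lists were chosen with earlier results of these data known. Named genes were the members, 4 genes of smallest p per pathway list, textbook partners and targets, and 3 genes of highest r per member. Lengths and exons came from GENCODE M21, promoters from RefSeq.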

Additional observations from a re-analysis of the deposited data

How the results depend on the processing

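No gene was called in either direction under any of the 20 alternatives to the edgeR fit of 6 samples (other scaling factors, no or a stricter filter, DESeq2, limma-voom, covariates, 7 separate libraries, left-out libraries), with 158 genes (adjusted for the heat shock score) to 960 genes (without sgRosa 3 and 4) at an unadjusted p under 0.05. Tsc22d1 and Tsc22d2 kept the sign of their log2 fold change in all 20. Tsc22d3 changed sign when adjusted for the endothelial score (-0.086), and Tsc22d4 when adjusted for the heat shock score (-0.027). Without single libraries, or without sgRosa 3 and 4 together, Tsc22d3 ran from -0.024 (without sgRosa 2) to 0.23 (without sgEgfr 2). The cause was not tested. Scaling by library totals gave a median of all genes of -0.018, against 0.020 with TMM.

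Same-numbered samples did not deviate together in every pair (r of deviations from the group means of -0.11, 0.52 and 0.55), and sgEgfr 1 correlated best with sgRosa 2 (0.26). With the replicate number as a block, 0 genes were called, 705 had an unadjusted p under 0.05 against 401 without the block, and the log2 fold change of Tsc22d1 was 0.71. The mean log2 ratio of Tsc22d3 to Tsc22d4 per kilobase was 0.32 with merged exons and -1.05 with median coding transcripts.

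Depth limits Tsc22d2 most, with 111 counts in sgRosa 4. Counting errors cover reads, not molecules. The counts do not resolve isoforms or guide cutting, and 3 samples per guide limit every comparison.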
